A study of Homo sapiens with 9 samples.

Results

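The 44 interferon-stimulated genes described here were chosen by name from a general list of genes that cells switch on in answer to interferons, and all 44 were found among the 23727 genes of the deposited table of raw counts. RIGI, which older annotation calls DDX58, was matched by its Ensembl identifier. Of the 44, 42 had enough counts to be tested. RSAD2 and EPSTI1 did not. The cells were LN229, a widely used glioblastoma line of human origin, their mRNA was sequenced, and they received 500 µM sodium formate, a salt that feeds carbon units into folate metabolism. The 3 groups were untreated cells at 0 h, cells with formate for 8 h and cells with formate for 24 h, and each group held 3 libraries numbered 1 to 3. All 3 groups grew in the same DMEM-based medium, with glucose at 17 mM, glutamine at 2 mM and 10% serum, per the labels' protocols. No group stayed untreated for 8 h or 24 h, so the effect of formate and that of time in culture cannot be told apart, and both comparisons with 0 h use the same untreated libraries. LN229 was the only line studied, and it was given neither interferon nor any other agent, as far as the labels say; the source label spells its name differently from the growth protocol. The labels do not say whether the replicates were separate cultures, so the p-values measure only the spread between these libraries, which may be technical.

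Interferons bind receptors at the cell surface, whose JAK kinases phosphorylate STAT proteins. STAT2 acts with IRF9 in a complex that binds a DNA element called the ISRE, for interferon-stimulated response element, in the promoters of its target genes, while another element, GAS, is read by other complexes of the pathway. The target genes encode sensors of viral RNA, enzymes that degrade or modify RNA and protein, proteins that hold back the entry or exit of viruses, and regulators that feed back on the pathway itself, and many of them are transcribed at a low level in cells that have met no added interferon.

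Promoter sequences are shown first, since the ISRE is the element through which genes of this kind are known to be switched on. RefSeq promoters on GRCh38.p14, each reaching from 250 bases before to 50 bases after an annotated start, were found for 36 of the 44 genes; IFIT2, DHX58, OAS2, OASL, MX2, USP18, IFITM2 and IRF7 had no entry. The ISRE core was searched as GAAANNGAAA on both strands, with overlapping matches kept. It was present in 23 of the 36 genes (63.9%), against 1195 of 27305 genes with an entry (4.38%) and 447 of 11151 tested genes (4.01%). The GAS element, searched as TTCNNNGAA, which reads the same on both strands in its fixed letters, was present in 12 of the 36 (33.3%), against 2560 of the 27305 (9.38%). The stretches below run 5′ to 3′ on the strand of the gene and end at the base before the annotated start, and capitals mark the ISRE cores, which on the opposite strand appear as the reverse complement. Runs of capitals longer than the searched motif are overlapping matches. The first 4 genes rose at 24 h in at least 1 of the comparisons below and the last 3 did not pass in any comparison fitted over all 9 libraries.
IFIT3 (chr10:89327831-89327996, plus strand): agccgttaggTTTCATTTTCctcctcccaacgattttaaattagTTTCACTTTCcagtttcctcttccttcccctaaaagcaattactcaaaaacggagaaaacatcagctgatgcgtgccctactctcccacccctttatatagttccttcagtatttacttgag
IFIH1 (chr2:162318685-162318853, minus strand): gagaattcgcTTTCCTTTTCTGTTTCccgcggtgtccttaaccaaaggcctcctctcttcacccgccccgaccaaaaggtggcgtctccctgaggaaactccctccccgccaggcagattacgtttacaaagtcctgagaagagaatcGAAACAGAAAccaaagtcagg
IFITM3 (chr11:320861-320960, minus strand): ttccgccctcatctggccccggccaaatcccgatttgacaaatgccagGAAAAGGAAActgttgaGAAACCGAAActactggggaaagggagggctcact
HERC5 (chr4:88456984-88457118, plus strand): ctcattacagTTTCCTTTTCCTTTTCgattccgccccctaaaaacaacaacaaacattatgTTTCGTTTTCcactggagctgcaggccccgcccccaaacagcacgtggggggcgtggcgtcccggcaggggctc
ISG15 (chr1:1013374-1013496, plus strand): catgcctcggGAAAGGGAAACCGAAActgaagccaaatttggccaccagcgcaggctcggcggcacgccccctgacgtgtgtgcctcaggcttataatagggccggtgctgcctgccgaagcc
OAS3 (chr12:112938321-112938473, plus strand): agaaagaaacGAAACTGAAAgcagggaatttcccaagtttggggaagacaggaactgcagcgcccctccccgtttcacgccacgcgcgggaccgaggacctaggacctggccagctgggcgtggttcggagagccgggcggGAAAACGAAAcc
IFI6 (chr1:27672193-27672358, minus strand): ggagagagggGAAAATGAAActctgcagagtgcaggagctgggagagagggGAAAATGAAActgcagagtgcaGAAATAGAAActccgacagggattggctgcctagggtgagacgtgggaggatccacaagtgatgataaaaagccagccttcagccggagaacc
Each of these 7 stretches, chosen for display, held 2 or 3 ISRE cores, the genes that rose as well as those that were not called. No core was found in the entries of HERC6, RIGI, OAS1, STAT2 and XAF1, which rose at 24 h with or without the block defined below. Nor was there one in those of TRIM25, CMPK2, IFI35, IRF1, IRF9, SP110, SAMD9L and PSMB9. These genes did not pass in any comparison fitted over all 9 libraries. A match is a description of the letters in this window.

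The libraries held between 22222298 and 25848242 counts, and 3 counts, taken here as the limit of detection, were worth 0.115 to 0.141 CPM (each gene's count over the TMM-scaled size of its library). In a principal component analysis of the 500 most variable genes, replicate 1 of 0 h and replicate 1 of 8 h lay apart from the other libraries, so counts of called genes are also given without replicate 1 of every group. Markers of the line were checked: VIM, CD44, NES, EGFR, SOX2, S100B and OLIG2 were expressed, and GFAP, an astrocyte filament protein, had 3 to 10 counts. Of these, S100B rose at 24 h against 0 h, by 1.38 ± 0.34 in log2 (adjusted p 0.046). With the block defined below, VIM and CD44 fell and OLIG2 rose besides (adjusted p 0.00858, 0.00690 and 0.0303, and 0.134, 0.0929 and 0.0922 without it), with log2 changes of -0.46 ± 0.18, -0.38 ± 0.12 and 0.52 ± 0.17. The summed level of the 8 markers was 6278 to 8628 CPM at 0 h and 5354 to 6204 CPM at 24 h. Myeloid markers were near 0 in every group: 5 of 7 were in the table, and their summed level was 0.385 to 0.752 CPM at 0 h, 0.656 to 0.726 CPM at 8 h and 0.497 to 0.560 CPM at 24 h. None of 5 lymphoid markers was in the table, and of 4 plasmacytoid dendritic cell markers there was TCF4 alone, at 55.6 to 100.5 CPM at 0 h and 106.9 to 116.0 CPM at 24 h, which rose with the block alone (adjusted p 0.0246, and 0.147 without it). Of the endothelial markers, 3 of 4 were in the table, with a summed level of 0.423 to 0.707 CPM at 0 h, 0.363 to 0.699 CPM at 8 h and 1.16 to 1.86 CPM at 24 h. VWF made up most of this, with 8 to 12 counts at 0 h and 24 to 38 at 24 h, and rose by 1.60 ± 0.33 in log2 (adjusted p 0.0304, and 0.00596 with the block), while PECAM1 had 0 to 3 counts in every library. The part of these markers in the results was not tested. In bulk RNA, fewer cells of a type and less RNA per cell cannot be told apart.

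Levels per length of exon are given as RPKM, the CPM divided by the kilobases of exon. IFITM3, which keeps viruses from fusing with endosomes, had the highest level of the 44 genes, 38.3 RPKM at 0 h and 59.7 RPKM at 24 h (means, n = 3). It was followed by IFI6 with 16.3 and 16.2 RPKM, PSMB8 with 14.6 and 15.0 RPKM and STAT2 with 12.0 and 15.2 RPKM. At the other end, RSAD2, EPSTI1, OAS2 and IFI27 averaged 0.0465, 0.0593, 0.0748 and 0.0914 RPKM over all 9 libraries. Summed over the 44 genes, the level was 656.9, 746.5 and 713.4 CPM at 0 h, 653.7, 746.6 and 706.5 CPM at 8 h and 826.8, 857.3 and 899.1 CPM at 24 h, here and below in the order of replicates 1, 2 and 3. All 3 libraries at 24 h were above all 6 of the others in this sum.

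**Figure D1:**
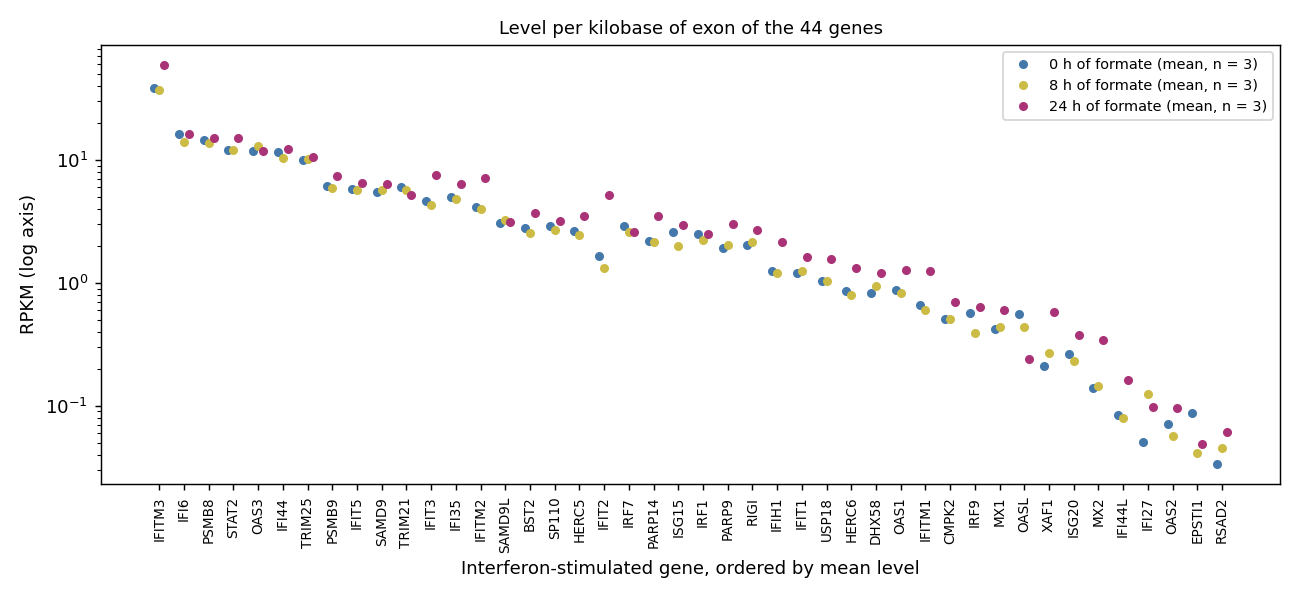
Mean level of each of the 44 genes in RPKM (log axis) at 0, 8 and 24 h, ordered by the mean over all 9 libraries; each point is the mean of 3 libraries. The genes span from 45.0 RPKM (IFITM3) to 0.0465 RPKM (RSAD2), and for IFIT2, MX2 and XAF1 the 24 h point stands well above the other 2, while for OASL it stands below them.

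After 24 h of formate, IFIH1, MX2, HERC6, IFITM2 and IFITM3 were higher than at 0 h and OASL was lower (edgeR's quasi-likelihood test, adjusted p under 0.05). The 5 that rose are a sensor of viral RNA, a GTPase that acts on viral capsids, a relative of the ISG15 ligase and 2 membrane proteins that block viral entry. They were 11.9% of the 42 tested members, and 2.47% of all 15273 tested genes were called higher; OASL was 2.38% of the members, and 1.77% of all genes were called lower. In both directions 14.3% of the members and 4.25% of all genes were called. At an unadjusted p under 0.05 there were 19 members (45.2%, against 26.4% of all genes). The replicate numbers were taken to pair the 0 h and 24 h libraries. This is uncertain, since replicate 3 of 0 h and replicate 2 of 24 h also deviated together (correlation 0.270). With the number as a term in the fit (the blocked fit), 20 of the 42 members passed, 19 of them higher (45.2%). Of all genes, 12.6% were called higher in this fit, 11.6% lower and 24.1% in all. The 14 added by the block were IFIT2, IFIT3, RIGI, DHX58, OAS1, MX1, HERC5, USP18, IFI44L, IFITM1, STAT2, PARP9, PARP14 and XAF1, all higher. In 24 of the 42 (57.1%) every 24 h library was above every 0 h library, against 15.9% of all genes, and in OASL and TRIM21 (4.76%, against 14.4% of all genes) every one was below.

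The median log2 change of the 42 tested members was 0.42, from -1.21 to 1.66, and that of all tested genes was 0.01. The fitted change was above 0 in 37 of the 42 (88.1%), against 50.9% of all genes. Per library, the median log2 ratio of the 42 to their own 0 h mean was -0.10, 0.05 and 0.00 at 0 h, -0.28, 0.08 and 0.03 at 8 h and 0.30, 0.37 and 0.49 at 24 h. The 24 h libraries thus stood above the rest by this measure, and the lowest value of the 9 belonged to replicate 1 of 8 h. Leaving out 1 library moved the count of called members without the block: 0 passed without replicate 2 or 3 of 24 h, where no gene of the table passed at all, and 0 without replicate 3 of 8 h, where 1.82% of all genes did, while 18, 15 and 20 members in these 3 fits had an unadjusted p under 0.05, against 16.4%, 16.5% and 23.9% of all genes. With a 0 h library left out, 1 member passed each time, namely IFITM3 (replicate 1), PARP9 (replicate 2) or MX2 (replicate 3). Of all genes, 2.28% to 3.68% passed in these fits. Leaving out replicate 2 of 8 h kept IFIH1 and IFITM3, beside 2.85% of all genes. Without replicate 1 of 24 h or replicate 1 of 8 h, 7 members passed each time, beside 5.76% and 4.9% of all genes. With the block, 11 to 19 members passed in the 9 fits that each left out 1 library, where 14.2% to 24.5% of all genes did, and IFIT2, IFIT3, IFIH1, OASL, MX2, IFITM2, IFITM3, PARP9, PARP14 and XAF1 passed in every one of them. Without replicate 1 of every group, 15 members passed, 14 of them higher, and 16.9% of all genes, and with the block 20, 18 of them higher, and 25.8% of all genes. A fit of the 0 h and 24 h libraries alone called 0 members and 0.825% of all genes (19 members and 22.2% of all genes at an unadjusted p under 0.05), and DESeq2 called 13 members and 10.9% of the genes it gave an adjusted p.

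**Figure D2:**
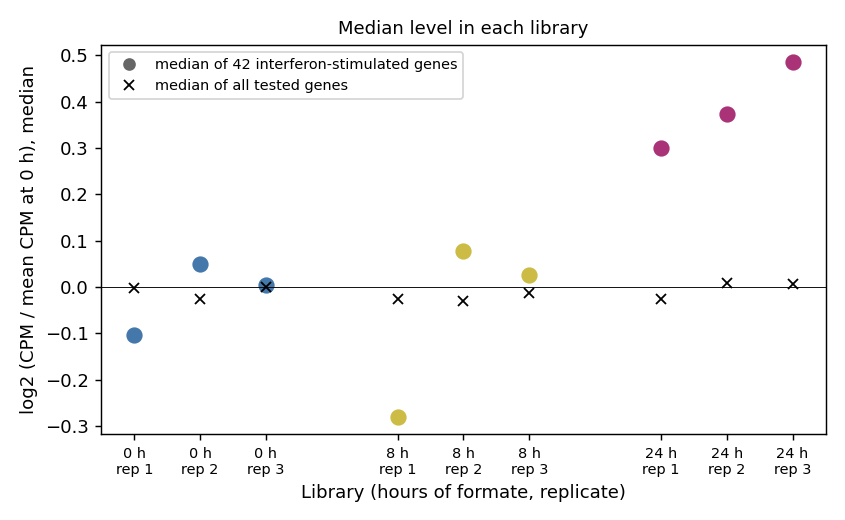
Median over the 42 tested interferon-stimulated genes (circles) and over all 15273 tested genes (crosses) of the log2 ratio of each library's CPM to the gene's mean CPM at 0 h. The circles of the 24 h libraries lie at 0.30 to 0.49, above all 6 of the others, and the crosses stay within 0.03 of 0.

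**Figure D3:**
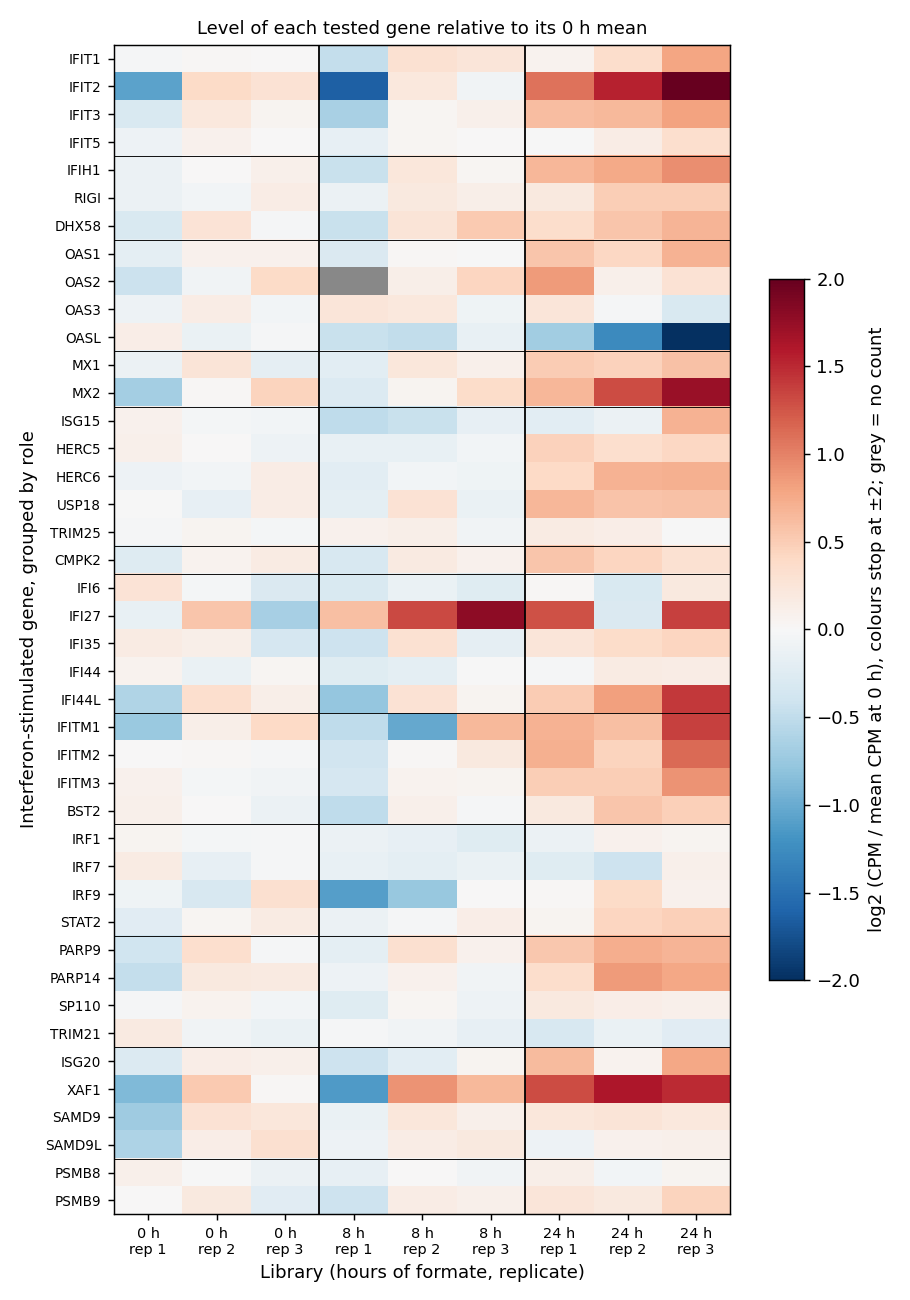
Log2 ratio of CPM to the mean at 0 h for each tested interferon-stimulated gene (one per line, grouped by role) in each of the 9 libraries; red is higher, blue is lower, colours stop at an absolute value of 2 and grey marks a library with no count. The 24 h columns are red for most genes, most strongly for IFIT2, MX2 and XAF1, and blue for OASL, and replicate 1 of 8 h is the column with the most blue.

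Of the 3 RNA sensors of the RIG-I family, 1 rose at 24 h against 0 h, and all 3 did with the block. For this and each list of members below, 2.47% of all genes were called higher without the block and 12.6% with it. Called lower were 1.77% and 11.6%. IFIH1 encodes MDA5, which detects long double-stranded RNA. It stood at 5.84, 6.35 and 6.81 CPM at 0 h, 4.63, 7.43 and 6.504 CPM at 8 h and 10.1, 10.7 and 12.1 CPM at 24 h. Every 24 h library was above every library of both other groups. From 6.33 ± 0.484 to 10.9 ± 1.01 CPM (mean ± SD, n = 3 each), the log2 change was 0.79 ± 0.18 (± SE, adjusted p 0.0345), and it was 0.79 ± 0.14 with the block (adjusted p 0.00217). RIGI, the sensor of short RNA with a triphosphate end, was measured at 8.24, 8.62 and 9.90 CPM at 0 h, 8.21, 10.2 and 9.65 CPM at 8 h and 10.2, 12.5 and 12.5 CPM at 24 h. Its 24 h libraries lay just above those of 0 h, and the log2 change of 0.39 ± 0.14 passed with the block alone (adjusted p 0.123 without it and 0.0250 with it). DHX58 encodes LGP2, a relative of both sensors that lacks their signalling domain. Its level was 2.59, 3.89 and 3.14 CPM at 0 h, 2.36, 3.85 and 4.59 CPM at 8 h and 4.10, 4.70 and 5.14 CPM at 24 h, with no overlap between 0 h and 24 h, and its log2 change of 0.53 ± 0.25 also passed with the block alone (adjusted p 0.198 and 0.0477).

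The IFIT proteins bind viral RNA through repeats of a helical motif, and their genes lie side by side on chromosome 10. None of the 4 passed at 24 h against 0 h without the block, and 2 rose with it. IFIT2 had the largest fitted change of the tested members, with 3.20, 8.77 and 8.27 CPM at 0 h, 2.18, 7.78 and 6.42 CPM at 8 h and 14.4, 19.7 and 30.4 CPM at 24 h. Replicate 1 was the lowest of its group at each time, by a wide margin at 0 h and 8 h, and yet the 24 h libraries were all above the others. Its log2 change was 1.66 ± 0.44 with an adjusted p of 0.0550, and 1.72 ± 0.20 with an adjusted p of 0.000280 with the block. Of its exons, 8.68% are overlapped by another gene on the same strand. IFIT3, a partner of IFIT1 and IFIT2 in RNA binding, stood at 9.99, 14.3 and 12.8 CPM at 0 h, 7.85, 12.7 and 13.3 CPM at 8 h and 18.9, 19.4 and 21.6 CPM at 24 h, again with no overlap of the 24 h libraries with the rest. Its log2 change of 0.69 ± 0.19 gave an adjusted p of 0.0623, and of 0.00339 with the block. IFIT1, which recognises RNA without a methylated cap and has a pseudogene copy that could share its reads, and IFIT5, which binds triphosphate RNA, did not pass in either fit, with log2 changes of 0.44 ± 0.23 and 0.16 ± 0.12.

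Oligoadenylate synthetases make a messenger that switches on RNase L, and among the 4 of them 1 fell, and with the block 1 rose besides. OAS1 was at 3.77, 4.58 and 4.55 CPM at 0 h, 3.54, 4.37 and 4.29 CPM at 8 h and 6.34, 5.73 and 6.96 CPM at 24 h. The 24 h libraries were above all others, and the log2 change of 0.56 ± 0.16 passed with the block (adjusted p 0.0162) and not without it (0.0719). OASL, which has no synthetase activity and enhances RIG-I signalling instead, went the other way, with 2.17, 1.81 and 1.95 CPM at 0 h, 1.45, 1.40 and 1.78 CPM at 8 h and 1.23, 0.819 and 0.497 CPM at 24 h. Every 24 h library was below every library of both other groups. It fell by 1.21 on the log2 scale (SE 0.29, adjusted p 0.0437, and 0.00913 with the block), from 1.97 ± 0.181 to 0.847 ± 0.365 CPM (mean ± SD, n = 3 each). OAS3, by far the most abundant of the 4 per length, stood at 91.6, 109 and 94.3 CPM at 0 h, 116, 113 and 92.7 CPM at 8 h and 116, 97.0 and 79.3 CPM at 24 h. The groups overlapped and the change of -0.01 ± 0.14 did not pass, although the blocked fit without replicate 1 of every group called it. OAS2 did not pass either, and its level lay under 1 CPM, with no count in replicate 1 of 8 h.

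The MX proteins are dynamin-like GTPases that trap incoming viral particles, and both rose with the block and MX2 without it. MX2 was at 1.13, 1.85 and 2.48 CPM at 0 h, 1.497, 1.88 and 2.34 CPM at 8 h and 2.87, 4.48 and 6.005 CPM at 24 h. The 24 h libraries lay above all others, and replicate 1 was the lowest and replicate 3 the highest at each time. The log2 change was 1.29 ± 0.32 (adjusted p 0.0490) and 1.29 ± 0.17 with the block (adjusted p 0.000549). Its neighbour MX1 was measured at 3.35, 4.35 and 3.23 CPM at 0 h, 3.13, 4.24 and 3.91 CPM at 8 h and 5.16, 5.0 and 5.47 CPM at 24 h. The 3 libraries at 24 h were above the other 6 and the log2 change of 0.51 ± 0.18 passed with the block alone (adjusted p 0.117 without and 0.0365 with it).

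ISG15 is a ubiquitin-like protein that is attached to other proteins, HERC5 is its main ligase, HERC6 a relative of that ligase, and USP18 takes ISG15 off again and damps the interferon receptor. Together with TRIM25 these are 5 genes, of which 1 rose without the block and 3 with it. HERC6 stood at 4.66, 4.85 and 5.53 CPM at 0 h, 4.31, 4.85 and 4.72 CPM at 8 h and 6.59, 8.15 and 8.20 CPM at 24 h, and its 24 h libraries did not overlap the rest. Its log2 change was 0.61 ± 0.15 (adjusted p 0.0489, and 0.00650 with the block). HERC5 was at 13.5, 12.6 and 11.7 CPM at 0 h, 11.3, 11.4 and 12.1 CPM at 8 h and 17.4, 15.9 and 16.8 CPM at 24 h. The 24 h libraries were above all others, and the log2 change of 0.41 ± 0.11 passed with the block alone (adjusted p 0.0585 without it and 0.0147 with it). Levels of USP18 were 2.17, 1.96 and 2.43 CPM at 0 h, 1.91, 2.67 and 1.998 CPM at 8 h and 3.46, 3.23 and 3.27 CPM at 24 h, so that all 24 h libraries were above the rest. Its log2 change of 0.60 ± 0.20 passed with the block alone (adjusted p 0.0929 and 0.0377). ISG15 itself stood at 2.44 ± 0.133 CPM at 0 h and 2.76 ± 1.02 CPM at 24 h (mean ± SD, n = 3 each), and replicate 3 stood above the other 24 h libraries. Its log2 change of 0.18 ± 0.25 did not pass (adjusted p 0.662, and 0.637 with the block). TRIM25, a ubiquitin ligase that acts on RIG-I, had a log2 change of 0.10 ± 0.09 and did not pass either.

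**Figure D4:**
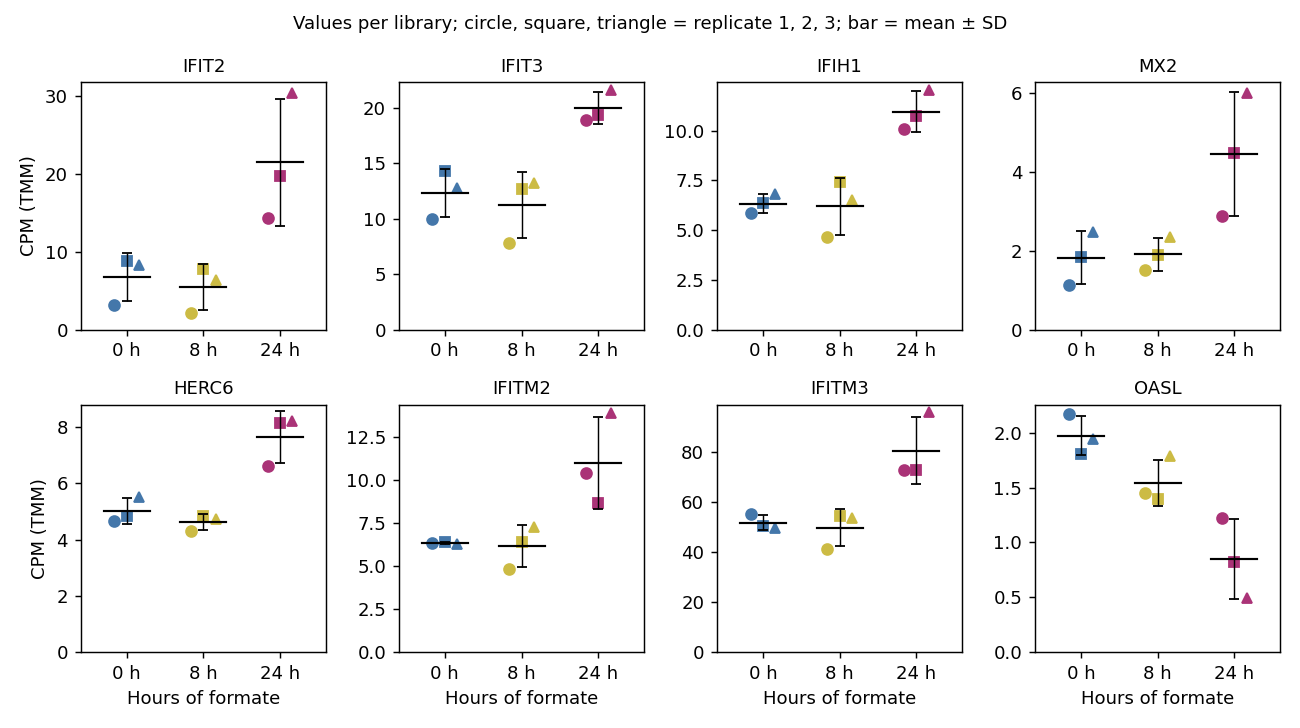
CPM in each library of the 5 members that rose and the 1 that fell at 24 h against 0 h without the block, together with IFIT2 and IFIT3, at 0, 8 and 24 h; symbols mark replicates 1 to 3, the bar is the mean and the whiskers the SD of 3 libraries, and each vertical axis starts at 0. In all 8 genes the 24 h libraries do not overlap the 0 h libraries, and in 7 of them they lie above. All 8 passed in this comparison with or without the block, so the lack of overlap is no separate support. Of all genes, 15.9% lie wholly above and 14.4% wholly below.

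The IFITM proteins stiffen membranes against viral fusion, and BST2 tethers budding viruses to the cell surface. Of these 4 genes 2 rose without the block and 3 with it. IFITM3 was the most abundant, with 55.1, 50.4 and 49.4 CPM at 0 h, 41.0, 54.4 and 53.7 CPM at 8 h and 72.8, 72.7 and 95.9 CPM at 24 h. All 24 h libraries were above the others, and the log2 change was 0.64 ± 0.14 (adjusted p 0.0317, and 0.00444 with the block). IFITM2 stood at 6.36, 6.42 and 6.28 CPM at 0 h, 4.85, 6.42 and 7.27 CPM at 8 h and 10.4, 8.66 and 13.9 CPM at 24 h, with nearly equal replicates at 0 h and no overlap with 24 h. The rise was 0.79 ± 0.20 in log2 (adjusted p 0.0460, and 0.00596 with the block). IFITM1 was low at 0.424, 0.769 and 0.928 CPM at 0 h, 0.499, 0.350 and 1.10 CPM at 8 h and 1.14, 1.08 and 1.82 CPM at 24 h. Its change of 0.92 ± 0.42 passed with the block alone (adjusted p 0.187 and 0.0406). IFITM1 and IFITM2 are overlapping and closely related genes on the same strand (32.5% and 22.7% of their exons), and 21.3% of IFITM3 is overlapped by a gene on the opposite strand, so reads could have been split among them and their values are uncertain. BST2 stood at 3.11 ± 0.235 CPM at 0 h and 4.14 ± 0.529 CPM at 24 h (mean ± SD, n = 3 each) without overlap, and its log2 change of 0.41 ± 0.20 did not pass in either fit.

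Of the 4 transcription factors of the pathway, 1 passed, with the block alone. In that fit 12.6% of all genes were called higher and 24.1% in all, so this count does not set the 4 apart. STAT2, the partner of IRF9 at the ISRE, was at 62.6, 75.5 and 82.3 CPM at 0 h, 68.0, 72.3 and 80.7 CPM at 8 h and 76.2, 99.2 and 103 CPM at 24 h. Same-numbered libraries were higher at 24 h in all 3 pairs while the groups overlapped, and the log2 change of 0.33 ± 0.14 passed with the block alone (adjusted p 0.155 and 0.0136). IRF7, the factor that amplifies interferon production, stood at 8.53, 6.81 and 7.52 CPM at 0 h, 6.85, 6.69 and 6.93 CPM at 8 h and 6.46, 5.69 and 8.16 CPM at 24 h. The groups overlapped, and its change of -0.17 ± 0.16 did not pass. IRF1, an early interferon target, and IRF9 had log2 changes of 0.01 ± 0.10 and 0.18 ± 0.28 that did not pass, and 48.4% of IRF9 and 22.0% of IRF1 are overlapped by another gene, on the same and the opposite strand.

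PARP9 and PARP14 belong to the ADP-ribosyltransferase family and sit near each other on chromosome 3. PARP9 was measured at 13.0, 21.7 and 16.8 CPM at 0 h, 14.9, 21.3 and 18.2 CPM at 8 h and 25.0, 28.4 and 27.4 CPM at 24 h, with 24 h above the rest and replicate 1 lowest at each time. The change was 0.65 ± 0.18 (adjusted p 0.0612), and with the block 0.67 ± 0.11 (adjusted p 0.00160). PARP14 stood at 16.3, 26.2 and 25.9 CPM at 0 h, 21.3, 24.1 and 21.8 CPM at 8 h and 29.1, 41.2 and 39.2 CPM at 24 h. Its change of 0.68 ± 0.18 likewise passed with the block alone (adjusted p 0.0575 and 0.00180). TRIM21, a cytosolic antibody receptor and ubiquitin ligase, was at 13.2, 11.2 and 10.7 CPM at 0 h, 11.4, 11.1 and 10.4 CPM at 8 h and 9.38, 10.7 and 9.94 CPM at 24 h, each 24 h library below each 0 h library, and its change of -0.23 ± 0.13 did not pass (adjusted p 0.274, and 0.185 with the block). SP110, a nuclear body protein, had a change of 0.14 ± 0.11 that did not pass. Of its exons, 20.9% are overlapped by other genes on the opposite strand.

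XAF1, an antagonist of the apoptosis inhibitor XIAP, had the second largest fitted rise of the tested members, with 0.754, 2.001 and 1.42 CPM at 0 h, 0.635, 2.58 and 2.17 CPM at 8 h and 3.42, 4.27 and 3.89 CPM at 24 h. Replicate 1 was far below its fellows at 0 h and 8 h, and the 24 h libraries were above all others. The log2 change was 1.45 ± 0.42 (adjusted p 0.0682), and 1.52 ± 0.28 with the block (adjusted p 0.00302). A gene on the opposite strand overlaps 38.3% of its exons, and since the strand setting of the counting is not given in the sources used here, the 2 cannot be told apart. The same list of other effectors holds ISG20, an exonuclease that degrades viral RNA, at 1.60, 2.12 and 2.08 CPM at 0 h, 1.45, 1.66 and 1.998 CPM at 8 h and 3.0, 2.03 and 3.31 CPM at 24 h. Its 24 h libraries overlapped those of 0 h and lay above those of 8 h, and its change of 0.52 ± 0.24 did not pass against 0 h (adjusted p 0.191, and 0.0995 with the block). SAMD9 and SAMD9L, neighbouring genes for antiviral proteins that curb translation, had log2 changes of 0.23 ± 0.21 and 0.02 ± 0.20, with replicate 1 of 0 h well below the rest, and did not pass. EPSTI1 had 8, 9 and 13 counts at 0 h and 4, 6 and 7 at 24 h and was not tested.

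Of the IFI genes, whose products range from mitochondrial to microtubule-linked proteins, IFI44L was at 0.565, 1.08 and 0.928 CPM at 0 h, 0.499, 1.05 and 0.893 CPM at 8 h and 1.23, 1.51 and 2.28 CPM at 24 h. The 24 h libraries were above the others, and its change of 0.95 ± 0.35 passed with the block alone (adjusted p 0.124 and 0.0180). IFI6, a small protein that protects cells from apoptosis, was far more abundant per length and stood at 17.1, 13.7 and 11.6 CPM at 0 h, 11.4, 12.8 and 11.9 CPM at 8 h and 14.4, 11.5 and 16.2 CPM at 24 h. Its groups overlapped, and it had a change of -0.01 ± 0.17 that did not pass. IFI35, IFI44 and IFI27 had log2 changes of 0.35 ± 0.19, 0.10 ± 0.11 and 0.91 ± 0.54 that did not pass, IFI27 at under 1 CPM in every library. PSMB8, a catalytic subunit that replaces its constitutive relative in the immunoproteasome, was at 47.1, 43.6 and 40.2 CPM at 0 h, 39.0, 43.9 and 41.4 CPM at 8 h and 47.4, 42.1 and 45.4 CPM at 24 h, with overlapping groups and a change of 0.04 ± 0.10. Of the exons of PSMB8, 20.6% are overlapped by other genes on the opposite strand. PSMB9, another immunoproteasome subunit, had a change of 0.29 ± 0.16 that did not pass. CMPK2, a nucleotide kinase, did not pass either, with 0.43 ± 0.21. RSAD2, its neighbour, which makes a chain-terminating nucleotide, had 6, 3 and 2 counts at 0 h, 4, 4 and 7 at 8 h and 3, 5 and 13 at 24 h and was not tested.

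**Figure D5:**
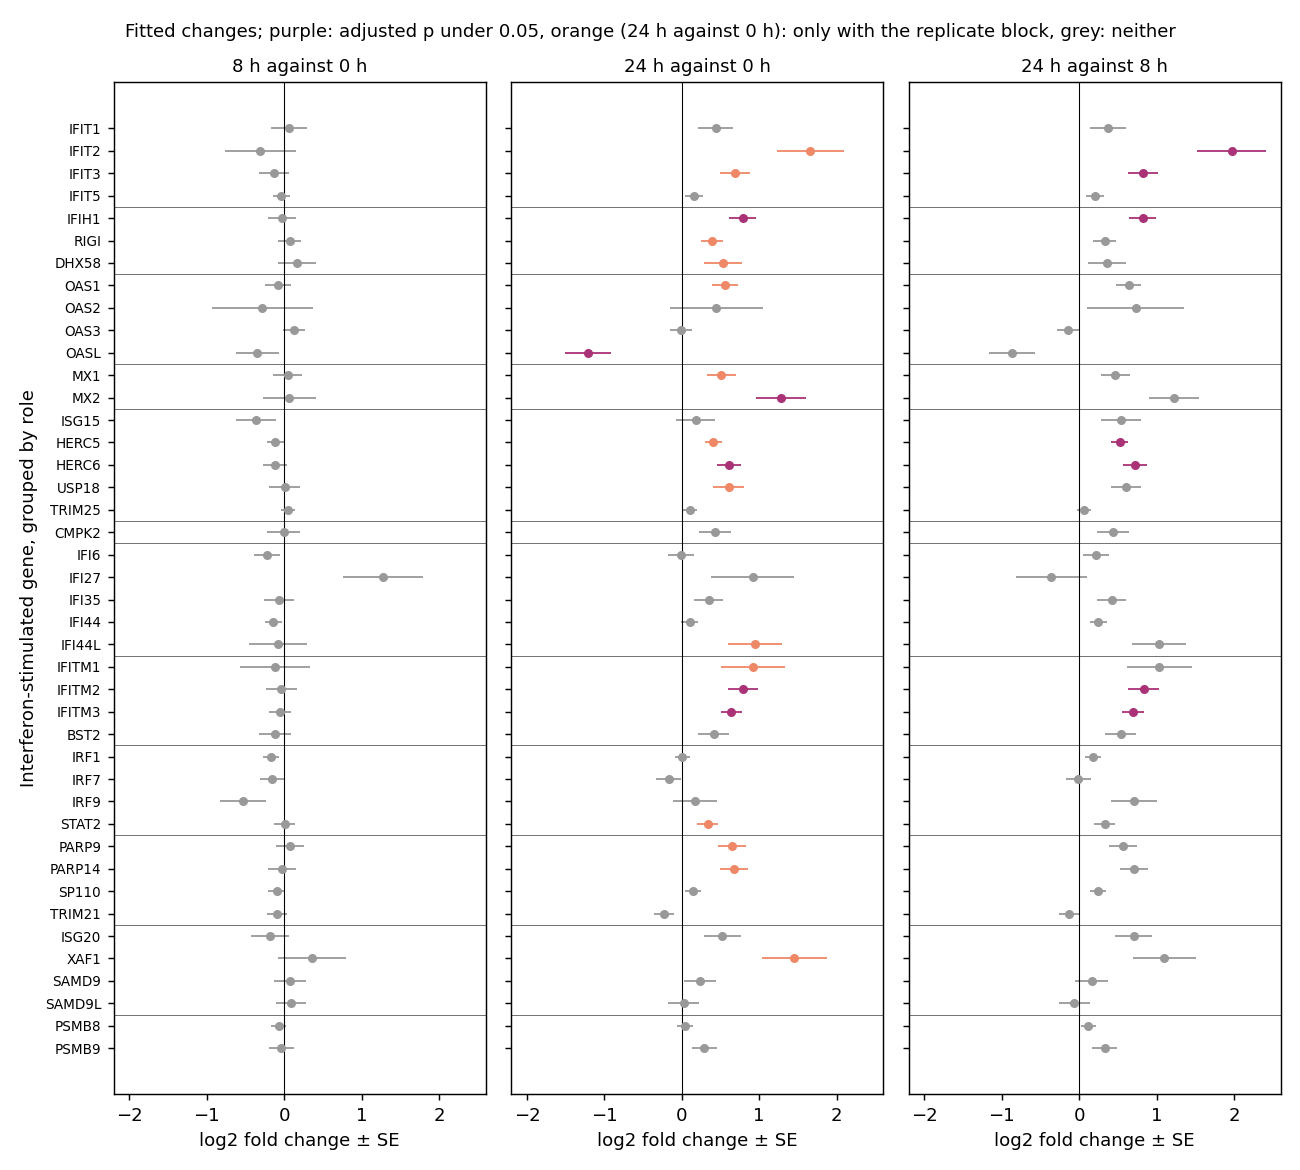
Fitted log2 fold change ± SE of each tested interferon-stimulated gene, grouped by role, for 8 h against 0 h, 24 h against 0 h and 24 h against 8 h. Purple marks an adjusted p under 0.05 without the block. Orange, used in the middle panel only, marks one that is under 0.05 with the replicate block alone. Grey marks the rest. No gene is coloured at 8 h, and in the middle panel 6 are purple and 14 orange. In the right panel 7 are purple, and grey there does not mean neither, since 18 members passed with the block in that comparison.

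At 8 h of formate, none of the 42 members passed against 0 h, and neither did any of the 15273 tested genes (0% called; edgeR's quasi-likelihood test, with and without the block, and DESeq2). At an unadjusted p under 0.05 there was 1 member, IFI27, and 0.517% of all genes (1.01% with the block, where it was again IFI27 alone). The median log2 change of the members was -0.06, from -0.53 to 1.27, beside -0.02 for all genes, and 14 of the 42 (33.3%) had a fitted change above 0, against 43.3% of all genes. IFI27, a mitochondrial protein gene of low level here, had 0.188, 0.308 and 0.133 CPM at 0 h, 0.318, 0.524 and 0.723 CPM at 8 h and 0.507, 0.172 and 0.538 CPM at 24 h, each 8 h library above each 0 h library, and a change of 1.27 ± 0.52 (adjusted p 1). Non-overlapping groups in this direction made up 1.43% of all genes, and in the other direction, as in OASL, ISG15 and IRF1, 1.89%. For ISG15 the values were 2.59, 2.38 and 2.34 CPM at 0 h, 1.72, 1.79 and 2.17 CPM at 8 h and 2.11, 2.24 and 3.94 CPM at 24 h. The change of -0.36 ± 0.26 did not pass. Replicate 1 was the lowest of the 3 libraries at 8 h for 35 of the 42 members (83.3%, against 37.9% of all genes), and at 0 h and 24 h for 22 of them each (52.4%, against 41.9% and 39.4%).

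Between 8 h and 24 h, IFIT2, IFIT3, IFIH1, HERC5, HERC6, IFITM2 and IFITM3 rose, and no member was called lower in the fit of all 9 libraries without the block. They were 16.7% of the 42 members, and of all genes 4.56% were called, 2.84% higher and 1.72% lower. At an unadjusted p under 0.05 there were 25 members (59.5%, against 22.8% of all genes). In 23 members (54.8%) every 24 h library was above every 8 h library, against 18.2% of all genes, and in OASL alone (2.38%, against 16.2% of all genes) it was below. The log2 changes were 1.97 ± 0.45 for IFIT2 (adjusted p 0.0350), 0.82 ± 0.19 for IFIT3 (0.0389) and 0.82 ± 0.18 for IFIH1 (0.0310). HERC5 and HERC6 changed by 0.52 ± 0.11 and 0.72 ± 0.15 (adjusted p 0.0299 and 0.0301), and IFITM2 and IFITM3 by 0.83 ± 0.20 and 0.69 ± 0.14 (0.0396 and 0.0250). This comparison is also the test of whether the change from the shared 0 h libraries differs between 8 h and 24 h. MX2 and OASL, both called against 0 h, had log2 changes of 1.22 ± 0.32 and -0.87 ± 0.30 here (adjusted p 0.0534 and 0.116), which missed the threshold and do not show that they were alike at 8 h and 24 h. DESeq2 called 11 members, MX2 among them and OASL not, and 10.2% of the genes it gave an adjusted p. The median change of the members was 0.45, beside 0.02 for all genes. No member passed without replicate 1 or 3 of 8 h or replicate 2 or 3 of 24 h, with 12, 20, 17 and 13 members at an unadjusted p under 0.05, against 13.3%, 21.0%, 15.8% and 14.1% of all genes. In these fits 0 genes of the table passed, except 0.34% of them without replicate 3 of 8 h. With replicate 2 of 8 h left out 3 members passed, and 2.38% of all genes. Leaving out replicate 1 of 0 h, which enters only the shared spread, let 11 pass and 16.3% of all genes. Asked for any difference at all over the 3 groups, edgeR's F test called IFIT2, IFIH1, HERC5, HERC6, IFITM2 and IFITM3 (14.3% of the members, against 3.64% of all genes).

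The rest of the interferon pathway was read from 6 further lists of 106 genes, of which 81 were in the table and 72 were tested. At 24 h against 0 h, 8 of the 72 rose and 1 fell (background 2.47% and 1.77% of all genes), and with the block 18 rose and 4 fell (background 12.6% and 11.6%). At 8 h none passed (0% of all genes), and 0 of the 72 had an unadjusted p under 0.05 by edgeR, with or without the block, or by DESeq2. Without replicate 2 or 3 of 24 h no gene of the table passed at 24 h against 0 h without the block. With the block 14 to 23 of the 72 passed over the 9 fits that left out 1 library, where 14.2% to 24.5% of all genes did.

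Of the 21 interferon genes themselves, 1 was in the table, IFNE, an epithelial type I interferon, with 1.06 ± 0.580 CPM at 0 h and 0.946 ± 0.331 CPM at 24 h (mean ± SD, n = 3 each). IFNB1 and the others were not analysed here. The receptor subunits IFNAR1 and IFNAR2 had log2 changes of 0.00 ± 0.09 and 0.03 ± 0.13, the kinases JAK1 and TYK2 of 0.09 ± 0.10 and 0.00 ± 0.11, and STAT3 of 0.13 ± 0.09, and none of these 5 passed in either fit.

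Among 16 tested sensors, adaptors and IRF kinases none passed without the block, and 2 rose and 2 fell with it, a share close to that of all genes in that fit (12.6% called higher and 11.6% lower), so these 4 are given as values and do not set the list apart. SAMHD1, which depletes nucleotides, changed by 0.38 ± 0.11 (adjusted p 0.00665 with the block) and IFI16, a nuclear DNA sensor, by 0.31 ± 0.10 (0.0183 with the block). ZBP1, a sensor of left-handed nucleic acid, changed by -1.11 ± 0.42 and TICAM1, the adaptor of TLR3, by -0.40 ± 0.16 (adjusted p 0.0169 and 0.0382 with the block). The adaptors MAVS and STING1 had log2 changes of 0.01 ± 0.13 and 0.33 ± 0.15 and IRF3 of -0.13 ± 0.12, and none of the 3 passed in either fit (adjusted p of STING1 0.177, and 0.0502 with the block). CGAS, the DNA sensor upstream of STING1, had at most 1 count in any library and was not tested.

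UBA7, the enzyme that activates ISG15, had 3.72, 7.31 and 6.99 CPM at 0 h, 4.26, 4.94 and 7.01 CPM at 8 h and 10.6, 12.4 and 14.8 CPM at 24 h. Every 24 h library was above the rest, and its log2 change was 1.06 ± 0.26 (adjusted p 0.0421). UBE2L6, the next enzyme in that chain, had a change of 0.32 ± 0.11 that passed with the block alone (adjusted p 0.0442). Of 32 other tested interferon-stimulated genes, 6 rose and none fell, and 13 rose with the block. GBP2, a guanylate-binding protein that attacks the membranes of pathogens, had 10.2, 21.2 and 19.8 CPM at 0 h, 10.3, 20.0 and 18.5 CPM at 8 h and 38.3, 52.3 and 52.4 CPM at 24 h. Its log2 change was 1.48 ± 0.28 (adjusted p 0.0267), and its relative GBP1 changed by 1.02 ± 0.20 (0.0268). In both, all 24 h libraries were above the other 6. TRIM22 and TRIM5, ubiquitin ligases that restrict retroviruses, rose by 0.70 ± 0.15 and 0.53 ± 0.12 (adjusted p 0.0311 and 0.0355), and PARP10, an ADP-ribosyltransferase, by 0.46 ± 0.11 (0.0378). Among 6 tested targets that interferon shares with NF-kB, ICAM1, an adhesion molecule, rose by 0.65 ± 0.11 (adjusted p 0.0199, with 23.6% of its exons overlapped on the opposite strand), and BIRC3, an inhibitor of apoptosis, fell with a log2 change of -1.001 ± 0.23 (adjusted p 0.0393). CXCL8, a chemokine that attracts neutrophils, had a change of -0.93 ± 0.43 that passed with the block alone (adjusted p 0.00835). The chemokine CXCL10, a widely used marker of an interferon response that was singled out after its values were seen, had 0 counts in all 9 libraries, which allows up to 3 counts, or 0.115 to 0.141 CPM, in each, for counting error only.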

How the data were processed

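The authors deposited 1 table of raw counts of reads per gene for 9 libraries (23727 genes), and 0 of its per-sample columns were left unused. STAR 2.7.4a, bcl2fastq 2.20.0.422 and GRCh38 are named in the submitters' processing notes, with no roles; the counting tool, annotation release and strand setting are not given in the sources used here. RNA integrity numbers were above 9 and the library kit was stranded, per the labels' protocols. Counts as deposited were filtered with filterByExpr (15273 genes left), scaled with TMM and fitted with edgeR 4.0.16 in R 4.3.3, 1 mean per group over 9 libraries, tested two-sided by quasi-likelihood and adjusted by Benjamini-Hochberg over all tested genes (threshold 0.05). The edgeR fit without the block was tested on simulated data, and the other steps were not. RPKM uses exon lengths of GENCODE release 29.

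The titles number the replicates alike in each group. Deviations of same-numbered libraries from their group means correlated at 0.476, 0.432 and 0.414 between 0 h and 8 h, at 0.367, 0.164 and 0.251 between 0 h and 24 h, and at 0.423, 0.0367 and 0.404 between 8 h and 24 h, so the numbers were taken to pair all but the last comparison. The block was nonetheless a single term over all 9 libraries, so the blocked fit also paired 8 h with 24 h. Its calls at 24 h against 0 h rest on that pairing too, and no blocked fit of the 0 h and 24 h libraries alone was run. For 0 h and 24 h the pairing is uncertain. Replicate 3 of 0 h and replicate 2 of 24 h, which differ in number, correlated at 0.270, above the 0.164 and 0.251.

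Members and lists were chosen with earlier results of these data known. Values in every library are given for the 26 members that had an adjusted p under 0.05 in any comparison, with or without the block (21), or were among the 4 largest rises, the 4 largest falls or the 4 highest levels per length; from each further list, up to 5 called genes are named, besides a few fixed ones. Alternatives were the replicate block, RLE size factors, no filter, DESeq2 1.42.0, the compared groups alone and leaving out libraries; leaving out replicate 1 of every group was added after seeing the data. One gene of the further lists enters their counts and is not reported here by itself.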

Additional observations from a re-analysis of the deposited data

Results flagged for a closer look

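In 7 members the change from the shared 0 h libraries was larger at 24 h than at 8 h, by the test of the difference itself over all genes (edgeR's quasi-likelihood test, 24 h against 8 h). On the log2 scale the difference was 1.97 in IFIT2 (adjusted p 0.0350), 0.82 in IFIT3 (0.0389), 0.82 in IFIH1 (0.0310) and 0.83 in IFITM2 (0.0396). It was 0.72 in HERC6 (0.0301), 0.69 in IFITM3 (0.0250) and 0.52 in HERC5 (0.0299). In each of the 7, all 3 libraries at 24 h were above all 3 at 8 h. The 7 were picked by this same comparison, so the lack of overlap adds no separate support. Of all genes, 4.56% were called in it, and in 18.2% every 24 h library was above every 8 h library. No member passed without replicate 1 or 3 of 8 h or replicate 2 or 3 of 24 h, where at most 0.34% of all genes did.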

How the results depend on the processing

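Of the 42 tested members, 6 were called at 24 h against 0 h, 7 at 24 h against 8 h and 6 in the test over all 3 groups, and 9 of the 72 further pathway genes were called at 24 h against 0 h. With the replicate block these counts were 20, 18, 17 and 22, beside 24.1%, 20.5% and 19.6% of all genes in the 3 tests, and the block changed no call at 8 h. The 18 at 24 h against 8 h were 17 higher, with MX2 (adjusted p 0.000724) and ISG20 (0.0402) among them, and OASL lower (0.0493). With DESeq2 they were 13, 11, 13 and 14, beside 10.9%, 10.2% and 10.1% of the genes given an adjusted p in the 3 tests. In fits of the compared groups alone, 0 members and 1 pathway gene were called at 24 h against 0 h, beside 0.825% of all genes. At 24 h against 8 h 11 members were called, beside 11.9% of all genes. Without replicate 1 of every group, 15 members were called in each of the first 2 comparisons, beside 16.9% and 19.9% of all genes. With the block they were 20 and 18, beside 25.8% and 28.9%. Leaving out 1 library gave 0 to 7, 0 to 11 and 0 to 10 members and 0 to 8 pathway genes, and 11 to 19, 11 to 25 and 14 to 23 with the block in the comparisons fitted so. Of all genes, 0% to 5.76%, 0% to 16.3% and 0% to 8.18% were called in the 3 tests without the block. With it, 14.2% to 24.5% were called at 24 h against 0 h and 7.57% to 34.8% at 24 h against 8 h. With the block, 16 members were called at 24 h against 0 h without replicate 2 of 24 h or replicate 3 of 8 h (16.2% and 17.6% of all genes). At 24 h against 8 h it called 16 without replicate 2 of 0 h and 12 without replicate 3 of 24 h (16.1% and 11.9% of all genes). RLE size factors and no filter on low counts moved none of these counts by more than 1.5 times, and at 8 h against 0 h every setting called 0 members. No fitted change of a named member that passed in either fit turned its sign in the settings computed for it, while IFI6, OAS3 and PSMB8, which passed in neither, did so when 1 library was left out. The numbers did not pair the replicate 2 libraries of 8 h and 24 h, and the cause of these shifts was not tested. Genes under about 1 CPM rest on few counts, which limits their precision.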
